A study of Mus musculus with 46 samples.

Results

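The major urinary proteins (MUPs) are small lipocalins, barrel-shaped carriers that hold volatile ligands, and their genes lie side by side in a cluster on mouse chromosome 4. Hepatocytes secrete MUPs into the blood, the kidney filters them into the urine, and there they carry scent signals between mice. The hepatic Mup genes are known to be more active in males than in females and to depend on pulsed growth hormone acting through STAT5, with inputs from glucocorticoid, thyroid hormone and testosterone. The genes described here are Mup1, Mup2, Mup3, Mup4, Mup5, Mup20 and Mup21, taken by symbol from the RNA-seq tables. These 7 symbols filled 9 of the 25494 rows, because Mup2 had 3 rows, and 5 of the 9 rows held enough counts to be tested. A further 15 rows had a symbol beginning with Mup and are given for comparison.

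Male C57BL/6 mice arrived at 5 weeks of age, were kept for 1 week on chow and were then fed for 20 weeks either a lipid-rich diet (LD, labelled high fat, 60% of energy as lipid) or a carbohydrate-rich diet (CD, labelled low fat, 70% of energy as carbohydrate). Whole liver was used throughout, with no other treatment or genetic change, so that fewer cells of a type and less RNA per cell cannot be told apart. RNA-seq covered 5 mice per diet, H3K27ac ChIP-seq (a histone mark of active promoters and enhancers) 3 per diet, ChIP-seq of the transcription factors Hnf4α and C/EBPα 2 per diet each, and promoter capture Hi-C (PCHi-C) and Hi-C 2 libraries per diet each. The RNA libraries held 31707963 to 39012699 counted read pairs, and their log2 profiles correlated at 0.983 to 0.994 within a diet. The labels do not state that replicates of one number in different assays came from 1 animal.

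The sequences that set the measured copies apart are shown first, since reads can be assigned only where copies differ. The 250 bases before the start sites of the 3 members with the highest counts were read from the mm9 assembly (NCBIM37), on the minus strand, which all 3 genes use. They lie at chr4:61748347-61748596 for Mup3, chr4:61715152-61715401 for Mup20 and chr4:61811876-61812125 for Mup21, each ending at the base before the start. Capitals mark TATATAA, the letters of a TATA box, which 3.23% of 24655 start sites hold in the same window.
Mup3: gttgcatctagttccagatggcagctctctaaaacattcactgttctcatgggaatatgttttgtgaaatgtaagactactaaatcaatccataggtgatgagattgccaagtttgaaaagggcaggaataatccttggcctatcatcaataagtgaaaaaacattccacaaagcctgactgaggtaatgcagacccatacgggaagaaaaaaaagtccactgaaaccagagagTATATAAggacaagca
Mup20: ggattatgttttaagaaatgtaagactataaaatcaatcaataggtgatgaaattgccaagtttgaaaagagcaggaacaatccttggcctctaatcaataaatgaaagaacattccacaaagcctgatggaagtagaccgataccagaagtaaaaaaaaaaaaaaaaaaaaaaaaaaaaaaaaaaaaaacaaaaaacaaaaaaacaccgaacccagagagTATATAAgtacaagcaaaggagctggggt
Mup21: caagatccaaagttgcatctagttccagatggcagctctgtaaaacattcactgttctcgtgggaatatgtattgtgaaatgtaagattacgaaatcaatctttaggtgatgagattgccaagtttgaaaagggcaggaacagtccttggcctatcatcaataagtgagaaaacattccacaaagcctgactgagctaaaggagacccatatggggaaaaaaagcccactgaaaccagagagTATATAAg

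Aligned end to end with gaps counted, the Mup3 and Mup21 stretches shared 85.8% of their bases, and Mup20 shared 55.9% with Mup3 and 49.8% with Mup21. Over the best matching part alone and without gaps, Mup3 shared 93.7% of 239 paired bases with Mup21 and 87.6% of 194 with Mup20, and Mup20 shared 85.3% of 156 with Mup21. The TATATAA match began 16 bases before the annotated start in Mup3, 29 before it in Mup20 and 8 before it in Mup21. Mup20 carried a run of 38 A, against at most 8 in Mup3. At the 35-base read length of the ChIP libraries, 95.4% of the Mup3 windows and 96.3% of the Mup21 windows occurred once in the genome, but 21.8% of those of Mup20. Strings of CAAAGTCC (a core of the Hnf4 motif) and TTCNNNGAA (the STAT motif), searched on both strands, were in none of the 3, and 1.27% and 6.86% of all start sites hold them.

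Mup3, which encodes a liver MUP, gave the most read pairs of any member and was lower on LD in every mouse. Counts were 314637, 322155, 195722, 131486 and 150896 in LD replicates 1 to 5 and 413887, 497002, 441758, 368486 and 458817 in CD replicates 1 to 5. The diets did not overlap, and LD replicates 4 and 5 were the lowest. In CPM (counts scaled to library size by edgeR's TMM method) Mup3 fell 2.06-fold, from 12710 ± 683.2 on CD to 6180 ± 2111 on LD (SD, n = 5 each). On the log2 scale this was -1.04 (SE 0.20, adjusted p 0.00276, edgeR quasi-likelihood test). The row lies at chr4:61744511-61748346.

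Mup21, at chr4:61808866-61811875, fell as well. Its counts were 9574, 11071, 5269, 2922 and 3443 on LD and 14680, 19081, 15004, 16527 and 14861 on CD. No LD mouse reached the lowest CD mouse, and LD replicates 4 and 5 were again the lowest. LD mice averaged 177 ± 88.9 CPM and CD mice 468.5 ± 44.1 (SD, n = 5 per diet), which is -1.40 in log2 terms (SE 0.32, adjusted p 0.0112, edgeR).

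The third called row carried the symbol Mup2 but ran from the start of the Mup10 row to the end of the Mup11 row, chr4:60591113-60675242, and held few read pairs. Counts were 15, 9, 7, 0 and 4 on LD and 27, 31, 44, 26 and 36 on CD, so that every LD mouse lay below every CD mouse. The log2 fold change was -2.27 (SE 0.44, adjusted p 0.0023, edgeR), with 0.192 ± 0.151 CPM on LD and 0.954 ± 0.181 on CD (SD, n = 5 each). No single transcript was matched to that row, so its count cannot be given to 1 gene copy.

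Mup20, which encodes darcin, the male pheromone protein that attracts females, did not pass the test. Counts were 180183, 468555, 180404, 99557 and 311478 on LD and 282150, 417559, 230545, 311490 and 256410 on CD. The diets overlapped: LD replicate 2 was the highest of all 10 mice and LD replicate 4 the lowest. LD mice averaged 6799 ± 3464 CPM and CD mice 8737 ± 1801 (SD, n = 5 per diet), so that LD differed from CD by -0.36 in log2 terms (SE 0.33, adjusted p 0.459, edgeR).

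Mup1, a liver copy of the central cluster at chr4:60510885-60514832, did not pass either. Its counts were 883, 589, 232, 102 and 92 on LD and 321, 304, 342, 616 and 1080 on CD. LD mice averaged 10.3 ± 9.04 CPM and CD mice 15.7 ± 9.88 (SD, n = 5 per diet). The SD within each diet thus exceeded the difference between the means, and the log2 fold change was -0.60 (SE 0.68, adjusted p 0.56, edgeR). Without LD replicates 4 and 5 it was -0.04.

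The remaining 4 rows were not tested. Mup4 (chr4:59969678-59973537), known for expression in nasal tissue, had 0 to 8 counts per mouse, and Mup5 (chr4:61492353-61496214), known from salivary and lacrimal glands, had 3 to 17. The Mup2 row at chr4:60148785-60152728 had 1 to 7 counts, and the Mup2 row at chr4:60961051-61100734 was at 0 in all 10 mice. In total Mup5 had 40 counts on LD and 62 on CD, and Mup4 had 14 and 17. The plot of CPM by member shows that all 5 LD mice lay below all CD mice in 3 panels.

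**Figure D1:**
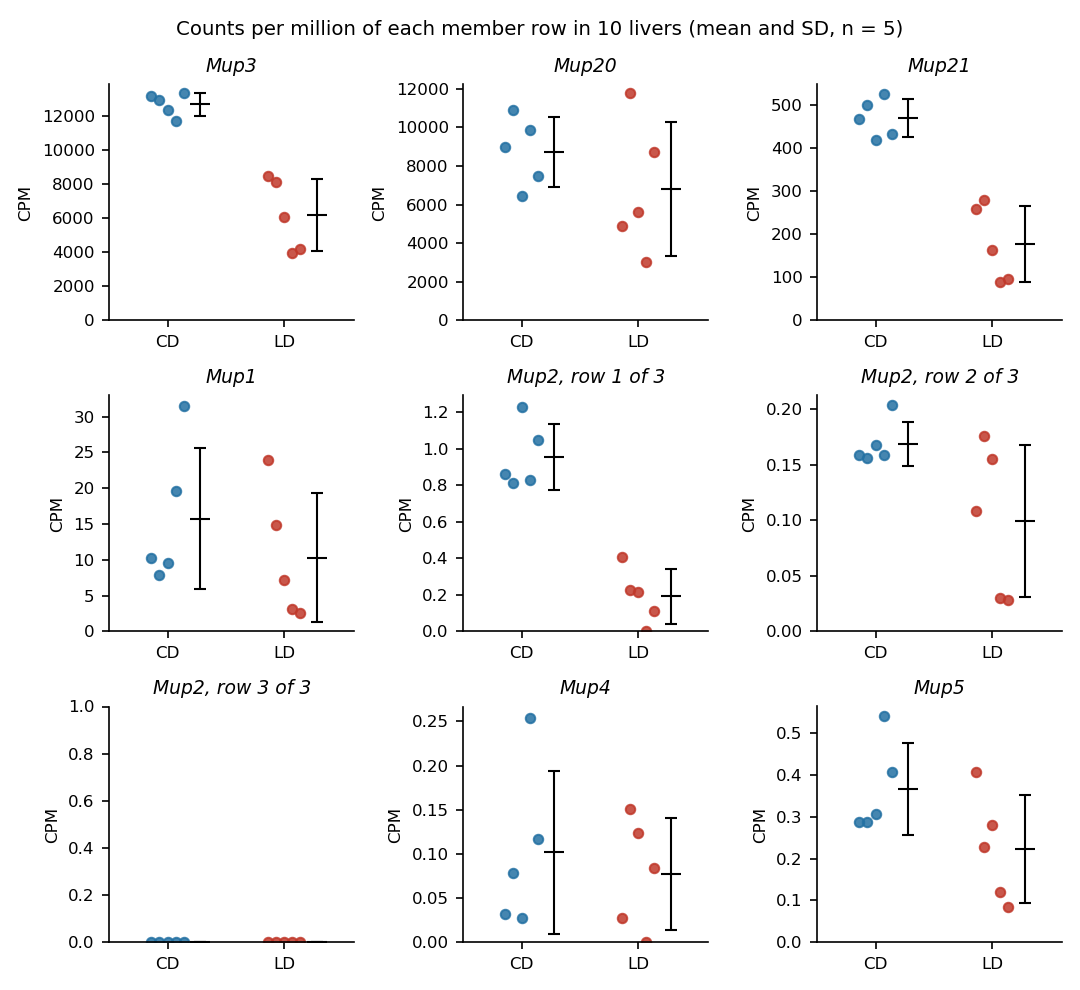
CPM (linear axes from 0, one scale per panel) of the 9 rows of the 7 members, with each point 1 mouse and the bar the mean and SD (n = 5). The 3 rows of Mup2 are ordered by their CD mean, so row 1 is the row from Mup10 to Mup11. LD mice lie below all CD mice for Mup3, Mup21 and the first Mup2 row, whereas the diets overlap for Mup20 and Mup1.

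Of the 5 tested member rows, 3 were called lower on LD (adjusted p under 0.05 and a fold change above 1.2) and 0 higher, with a median log2 fold change of -1.04. Over all 13494 tested rows, 11.1% were called lower and 13.8% higher, and the median was near 0 (-0.002). All LD mice lay below all CD mice in 3 of the 5 member rows and in 8.35% of all tested rows, and above them in 0 and in 10.2%. The counts describe these 5 rows and are no test of the family.

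Levels per length were taken from the deposited TPM (a unit scaled by transcript length and library size). TPM does not correct for read pairs that may be left uncounted because they fit several places, and 17.6% of the 76-base windows within exons of Mup20, 18.1% of Mup1 and 0% of Mup2 were unique in the genome, against 86.5% of Mup3 and 76.7% of Mup21. The order below is therefore that of the counted pairs, in which Mup20, Mup1 and Mup2 may be understated. On CD, Mup3 was at 25150 ± 1190 TPM, Mup20 at 17730 ± 3840, Mup21 at 1115 ± 120.2 and Mup1 at 26.0 ± 16.4 (SD, n = 5 each). By mean TPM over the 10 mice, Mup3 ranked 5th and Mup20 6th among all 25494 rows, and Mup21 ranked 160th. On LD the order of the first pair was not separated: Mup20 was at 14650 ± 7560 TPM and Mup3 at 12880 ± 4266, with Mup21 at 443 ± 217 and Mup1 at 17.8 ± 15.6. Mup5, Mup4 and the 3 Mup2 rows averaged under 2 TPM on both diets. On CD the Mup2 row from Mup10 to Mup11 (1.66 ± 0.325 TPM) lay above Mup5 (0.755 ± 0.237) in every mouse, and Mup5 above the Mup2 row at chr4:60148785-60152728 (0.294 ± 0.0355), whose values overlapped those of Mup4 (0.211 ± 0.195). On LD these rows overlapped.

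Since Mup3 was called and Mup20 was not, the ratio of the pair was compared directly. The log2 ratio of Mup20 to Mup3 in TPM was -0.77, 0.57, -0.08, -0.37 and 1.08 in the 5 LD mice and -0.52, -0.22, -0.90, -0.21 and -0.81 in the 5 CD mice. Mup3 exceeded Mup20 in 5 of 5 CD mice, and Mup20 exceeded Mup3 in 2 of 5 LD mice. The mean was 0.09 ± 0.74 on LD and -0.53 ± 0.32 on CD (SD, n = 5 each), a difference of 0.62 with p = 0.143 (two-sided exact permutation test over 252 assignments). The comparison was chosen after the values had been seen, and a difference between the responses of the pair is therefore not shown.

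The rest of the cluster gave the setting of these changes. Of the other 15 Mup rows, 14 were tested and 13 of them had a negative log2 fold change. Among these rows 3 were called lower and 0 higher, and the median was -1.04. The shares over all tested rows were 11.1% lower and 13.8% higher. Most of the other Mup rows are central copies, whose coding sequences shared 98.3% to 99.8% of their bases, so they are not separate observations. The called rows were Mup6 (-0.88, adjusted p 0.0172), Mup15 at chr4:61096819-61100736 (-1.52, adjusted p 0.0325) and Mup16 (-1.51, adjusted p 0.0306, edgeR throughout). The values ran from -2.14 for Mup7 (SE 0.92, adjusted p 0.125) to 0.55 for Mup9 (SE 0.54, adjusted p 0.494), and 11 of the 15 rows had over 1000 counts in all: Mup7, Mup9, Mup10, Mup11, Mup12, Mup14, Mup15, Mup16, Mup17, Mup18 and Mup19. These calls moved with the libraries used. They numbered 1 without LD replicate 3, CD replicate 3 or CD replicate 5, 8 without LD replicate 1, and 1 (Mup16, adjusted p 0.0458) without LD replicates 4 and 5, when Mup9 was called higher at 1.12 (adjusted p 0.014). In that last fit Mup10 (0.01), Mup13 (0.01) and Mup18 (0.10) were no longer negative, and none of the 3 was called in either fit.

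**Figure D2:**
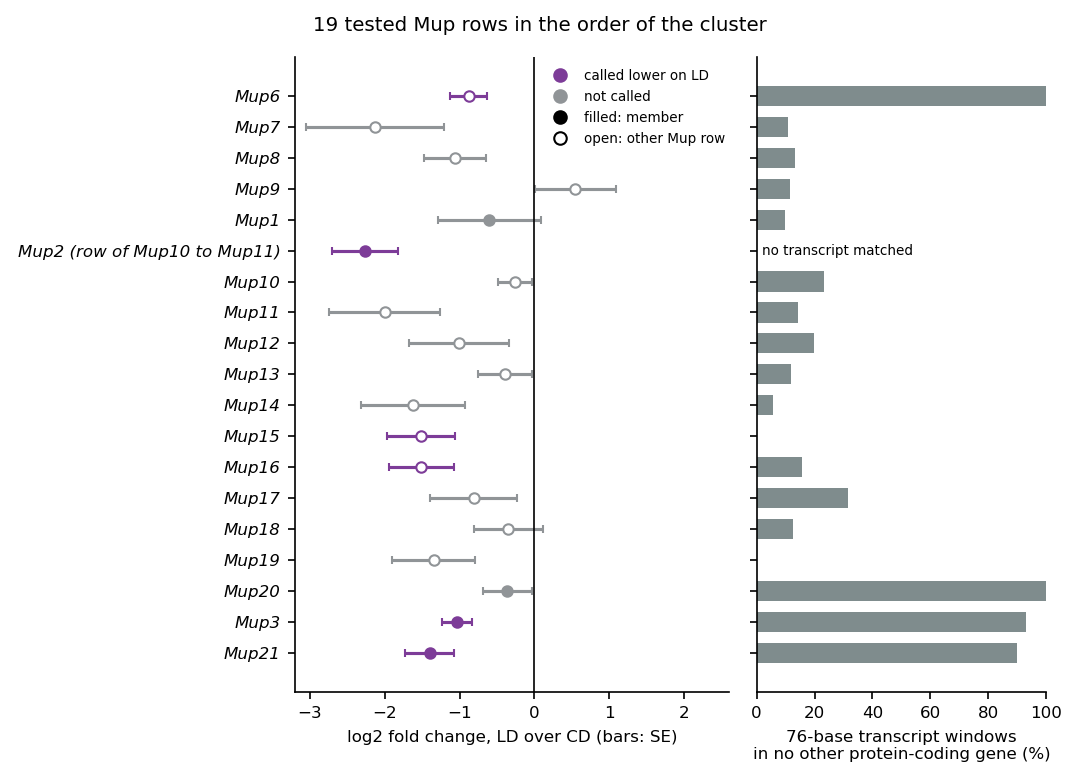
Left, log2 fold change (LD over CD, bars SE) of the 19 tested Mup rows in chromosomal order; right, the percentage of 76-base windows of each transcript that lie in no other protein-coding gene, 0 for Mup15 and Mup19. Of the 19 rows, 18 lie left of 0 and 6 are called lower. Mup3, Mup21, Mup20 and Mup6 have at least 90% of windows in no other protein-coding gene and the central copies far fewer, but pseudogenes were not searched, and 17.6% of the Mup20 exon windows are unique in the genome.

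For Mup3, Mup21 and Mup20 the SD among the LD mice exceeded that among the CD mice. Relative to the CD mean, Mup3 stood at 67.0%, 63.8%, 47.8%, 31.4% and 33.2% in LD replicates 1 to 5, and Mup21 at 55.3%, 59.5%, 34.9%, 18.9% and 20.5%. Mup20 followed another order, at 55.8%, 135%, 64.1%, 34.6% and 99.7%. LD replicate 4 was the lowest LD mouse in 13 of the 19 tested rows and LD replicate 5 in the other 6, while LD replicate 1 was the highest in 16 and LD replicate 2 in 3. Mup7, a central copy that was not called, was at 2.69% and 2.1% of the CD mean in LD replicates 4 and 5 and at 64.8% in LD replicate 1.

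Deviations of log2 CPM from the diet means were correlated across the 10 mice as a description. With Mup3 they correlated at 0.957 for Mup21, 0.832 for Mup1 and 0.34 for Mup20, and at 0.609 or more for all 17 rows other than Mup20. The points share their libraries and, for the central copies, reads. Without LD replicates 4 and 5, Mup3 was still lower at -0.75 (adjusted p 0.00139), Mup21 at -1.003 (adjusted p 0.00255) and the called Mup2 row at -1.74 (adjusted p 0.00447).

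**Figure D3:**
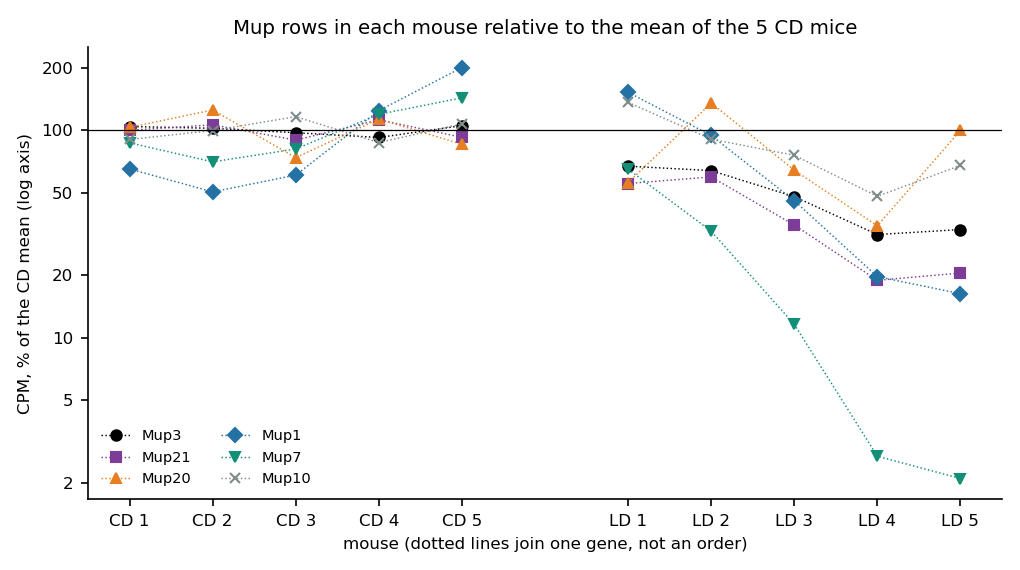
CPM of 4 members (Mup3, Mup21, Mup20 and Mup1) and of Mup7 and Mup10 in each mouse, as a percentage of the mean of the 5 CD mice on a log axis. Dotted lines join the values of one gene and have no order in time. Mup3 and Mup21 move together in the LD mice, Mup7 is at 2.1% in LD replicate 5, and Mup20 reaches 135% in LD replicate 2.

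In the libraries as a whole, Mup rows took 0.746% to 2.28% of the counts on LD (1.5 ± 0.558) and 2.19% to 2.64% on CD (2.46 ± 0.167, SD, n = 5 each). Mup3 and Mup20 together made up 80.8% to 94.4% of the Mup counts on LD and 81.3% to 88.8% on CD. The ranges of the Mup share overlapped, LD replicate 2 with its high Mup20 being the LD mouse inside the CD range. Computing the scaling without any Mup row left the Mup3 log2 fold change at -1.04.

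How far reads can be assigned to a copy differed between members. The coding sequences of 15 central copies shared 98.3% to 99.8% of their bases in pairwise comparison. Against these copies, Mup3 shared 82.9% to 84.1%, Mup21 84% to 85.3%, Mup4 88.2% to 89.1%, Mup5 89.7% to 90.6% and Mup20 90.1% to 91.4%. At the 76-base length of the RNA reads, 93% of the windows of the Mup3 transcript lay in no other protein-coding gene of the annotation, as did 90% for Mup21, 99.8% for Mup4, 95.6% for Mup5 and 100% for Mup20, but 9.62% for Mup1 and 0% for Mup2.

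That search left out pseudogenes, and a different picture was found for Mup20 when windows were searched in the whole genome. Of 3808 windows of 76 bases in the Mup20 gene, 3184 lay at exactly 2 places, and all of the second places were between chr4:61610025 and chr4:61689904. The pseudogene Mup-ps19 (chr4:61618183-61620945) held 2319 of these second places. By default the counting tool leaves out a read pair placed equally well at several positions, and the options named in the methods do not include one that changes this. Counts were still listed for copies with 0% of windows of their own, such as Mup2, Mup15 and Mup19, so a window of 76 bases does not fully describe which pairs were counted. The part of this in the Mup20 result was not tested.

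Regulators and pathways known for hepatic Mup genes were examined next in the same fit. Of 18 genes of the growth hormone and STAT5 axis, 3 were lower and 2 higher, with a median log2 fold change of -0.34, where 11.1% of all tested rows were lower and 13.8% higher. Ghr, the growth hormone receptor, was at 639 ± 59.8 CPM on LD and 799 ± 60.6 on CD (-0.32, adjusted p 0.0103), Igf1, the secreted mediator of growth hormone, at 309.9 ± 54.9 and 488 ± 43.5 (-0.66, adjusted p 9.43e-04), and Igfbp2, an IGF-binding protein, at 95.2 ± 34.8 and 329 ± 49.0 (-1.79, adjusted p 3.19e-04). Ptpn6, a phosphatase of cytokine signalling, was higher (0.51, adjusted p 0.00573), as was Stat5a. Stat5b had the opposite sign, at 54.8 ± 5.14 CPM on LD and 65.6 ± 5.73 on CD (-0.26, adjusted p 0.0266), with every LD mouse below every CD mouse, but fell short of the 1.2-fold limit. The median of this list lay below that of all tested rows, with 13 of its 18 genes not called.

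Over all tested rows, 11.1% were lower and 13.8% higher. Of 14 other regulators named for Mup genes, 5 were lower and 0 higher, with a median of -0.27. They were Ppargc1a, a coactivator (-0.73, adjusted p 7.01e-04), Zbtb20, a hepatic repressor (-0.63, adjusted p 0.00271), Thrb, a thyroid hormone receptor (-0.31, adjusted p 0.0154), Nr3c1, the glucocorticoid receptor (-0.29, adjusted p 0.0237), and Zhx2, a regulator of Mup genes known from mouse strains. Hnf4a and Cebpa, which encode the factors profiled by ChIP-seq, had adjusted p-values below 0.05 but fell short of the 1.2-fold limit. Hnf4a was at 399.8 ± 34.7 CPM on LD and 478 ± 19.3 on CD (-0.26, adjusted p 0.0176). Cebpa was at 321 ± 26.8 and 384 ± 23.5 CPM (-0.26, adjusted p 0.0202), with every LD mouse below every CD mouse.

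Sex-biased liver genes were counted beside the 11.1% lower and 13.8% higher over all tested rows. Among male-biased liver genes, to which the Mup genes belong, 16 of 20 tested were lower and 0 higher, with a median of -1.33. Cyp7b1, an oxysterol hydroxylase, fell by 1.31 on the log2 scale (adjusted p 2.02e-04), Elovl3, a fatty acid elongase, by 1.36 (adjusted p 2.34e-04), Cyp2u1 by 0.83 (adjusted p 1.7e-04) and Gstp1 by 0.73 (adjusted p 1.84e-04). Female-biased genes had the opposite median, 0.87, with 8 of 17 higher and 2 lower. Cyp2b9, a female-biased cytochrome P450, was at 197 ± 144 CPM on LD and 0.860 ± 0.586 on CD (adjusted p 3.72e-04), and Abcd2, a peroxisomal transporter, was higher by 0.87 (adjusted p 1.23e-04). Lifr and Cyp2c69 were lower, at -1.29 (adjusted p 2.1e-05) and -5.15 (adjusted p 7.15e-06).

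Other secreted proteins were examined by the same counts, beside 11.1% lower and 13.8% higher over all tested rows. Of 9 tested lipocalins outside the Mup family, 3 were higher and 1 lower, with a median of -0.04: Lcn2, an iron-siderophore carrier, rose from 1.38 ± 0.628 to 27.9 ± 4.44 CPM (4.32, adjusted p 7.15e-06), Orm2 and Orm3, acute-phase orosomucoids, rose by 2.999 and 3.35 (adjusted p 1.43e-04 and 8.43e-05), and Apom, an HDL carrier, fell by 0.81 (adjusted p 4.81e-05). Of 22 abundant secreted proteins, 2 were higher and 9 lower, a larger share of lower calls than over all rows, with a median of -0.14. Hp, haptoglobin, rose by 1.17 (adjusted p 1.02e-05), and the fibrinogen chains fell, Fgg by 0.71 (adjusted p 7.36e-05), Fgb by 0.76 (adjusted p 8.43e-05) and Fga by 0.62 (adjusted p 2.54e-04). Of 10 tested rows of secretory pathway genes, 4 were lower and 0 higher (median -0.14), led by Spcs2, a signal peptidase subunit, at -0.47 (adjusted p 2.47e-04). Orm, Cyp2b and Cyp2c genes also have close copies, and reads shared among them were not examined.

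Genes beside the cluster had a median near that of all rows. Of 22 tested genes within 1 Mb of the cluster, 1 was higher and 2 lower, with a median of -0.02, where 13.8% of all tested rows were higher and 11.1% lower. Hsdl2, a peroxisomal enzyme, was higher at 0.56 (adjusted p 7.01e-04), while Ugcg, which makes glucosylceramide, was lower at -0.57 (adjusted p 0.00756), and so was Zfp618 at under 1 CPM.

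The tested rows outside the Mup family whose log2 CPM followed Mup3 most closely over the 10 mice were Hsd3b5 (r = 0.99), Slc22a28 (0.985), Serpina3k (0.984), Slco1a1 (0.983) and Cyp4a12b (0.983). The correlations include the difference between the diets, and the points share their libraries. Within diets, the deviations of the same 5 genes correlated with those of Mup3 at 0.937 to 0.98. Their log2 fold changes ranged from -1.19 for Serpina3k to -5.34 for Hsd3b5, and Slco1a1 at -2.42 had an adjusted p of 0.0678.

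Cell type markers were compared beside these lists. Hepatocyte markers summed to 100000 to 123000 CPM on LD and 104000 to 119000 on CD, with 2 of 9 lower (Serpina1c and Tat) and 0 higher. Beside these counts stand 13.8% of all tested rows called higher and 11.1% called lower. Higher on LD were 2 of 10 macrophage markers (Cd68 and Itgam, summed level 503 to 1360 CPM on LD and 409 to 818 on CD), 2 of 8 stellate cell markers (Col3a1 and Col1a1, 541 to 761 and 477 to 591), 1 of 7 cholangiocyte markers (Spp1, 48.6 to 125 and 23.1 to 37.2), 2 of 9 lymphocyte markers (31.7 to 73.2 and 25.4 to 33.2), 1 of 8 endothelial markers (Lyve1, 452 to 631 and 498 to 603) and 1 of 2 tested adipocyte markers (Fabp4, 19.3 to 25 and 8.57 to 12.5). Lower on LD were 1 lymphocyte marker (Cd4, -1.26, adjusted p 0.00335) and the other tested adipocyte marker (Adrb3, -0.61, adjusted p 0.0351). The part of these cells in the Mup result was not tested.

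Chromatin was read across the cluster from the first to the last Mup row, chr4:59969678-61811875, 1842198 bp. At 35 bases, the ChIP read length, 20.7% of its windows were unique in the genome, and the share was 11.9% from the first row to the end of Mup5 and 59.2% from there to the end of Mup21. The peak lists rest on uniquely aligned reads, which limits what the central cluster can show, although single peaks were listed there in windows with little unique sequence. Mup20, Mup3 and Mup21 lie in the part with more unique sequence, although 6.08% of the Mup20 gene itself was unique at 35 bases.

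H3K27ac peaks covered 4.35%, 4.15% and 3.81% of the cluster in the 3 LD livers and 4.41%, 4.5% and 5.14% in the 3 CD livers. The diets did not overlap, with means of 4.1% ± 0.27 on LD and 4.68% ± 0.4 on CD (SD, n = 3 each). With peaks of at least 1000 bp only, the diets overlapped (difference -0.562 percentage points, exact permutation p = 0.2). Over all peaks, the difference of -0.58 percentage points gave p = 0.1 (two-sided exact permutation test, the smallest that 3 against 3 can give). Genome-wide the order was the other way round, with 155 ± 5.3 Mb covered on LD and 142 ± 2.9 Mb on CD. From the first row to the end of Mup5 the diets overlapped, with 1.4%, 1.19% and 0.874% covered in the LD livers and 1.22%, 1.15% and 1.74% in the CD livers. From the end of Mup5 to the end of Mup21, peaks of the LD livers covered 18.6%, 18.5% and 18% and those of the CD livers 19.9%, 20.7% and 21.6%.

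Around the start sites, Mup3 was acetylated over its whole length in all 6 livers. Within 5 kb of its start, 8.65 kb were covered in each of the 3 LD livers and 8.86, 8.65 and 9.05 kb on CD, so that Mup3, whose RNA fell, showed no separated difference in covered length. At Mup20 the values were 4.75, 4.15 and 4.15 kb on LD and 4.35, 4.15 and 4.95 kb on CD. The Mup20 gene body was free of peaks in 5 of 6 livers, but 6.08% of it was unique at 35 bases. Absence of the mark and absence of alignable reads cannot be told apart in that gene body. At Mup21 they were 3.8, 4.6 and 3.4 kb on LD and 6.2, 6 and 6.53 kb on CD, every CD liver above every LD liver. Mup1 and the Mup2 row at chr4:60148785-60152728 had 0 kb in all 6, in sequence of which 2.33% and 4.39% was unique at 35 bases, whereas Mup4 had 2.26 to 3.66 kb.

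Merged across samples, the cluster held 45 H3K27ac loci, of which 18 were called in all 6 livers and 12 in 1. No locus was in all 3 livers of a diet and in 0 of the other. Every CD liver covered more than every LD liver at 3 loci (3.68% of 62774 loci genome-wide), and the reverse held at 1 (9.58%). The 3 were the Mup21 locus chr4:61806601-61813800 (3.8, 4.6 and 3.4 kb on LD, 6.2, 6 and 6.8 kb on CD), a broad locus chr4:61671001-61692800 between Mup5 and Mup20 (15.4, 15.4 and 15.8 kb on LD, 19.6, 20.2 and 20 kb on CD) and chr4:61723401-61725800 between Mup20 and Mup3 (1.4, 1.2 and 1.2 kb on LD, 1.6, 2.2 and 2 kb on CD). The 1 locus with more on LD was chr4:61621801-61627000 (4.6, 4.2 and 4 kb on LD, 3, 1.2 and 1.8 kb on CD). Covered length is not signal height, which the lists do not give.

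**Figure D4:**
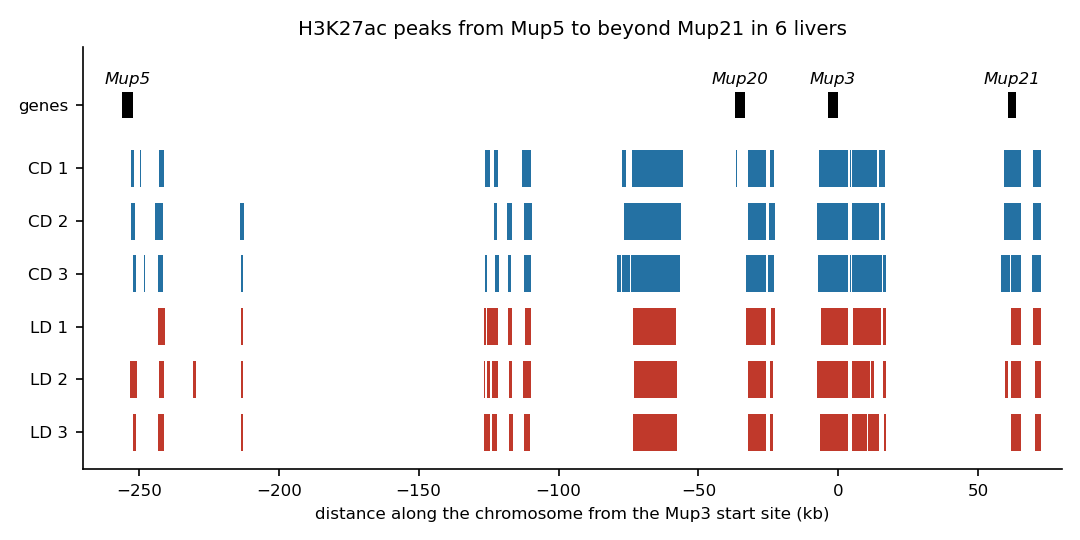
H3K27ac peaks of 6 livers (bars to scale) from Mup5 to beyond Mup21, by distance in kb from the Mup3 start site along the chromosome; gene rows are drawn in black and all 4 are transcribed from right to left. Mup3 lies within a peak in all 6 livers, and the bars at Mup21 together cover more in every CD liver than in every LD liver. The broad locus left of Mup20 covers 19.6 to 20.2 kb on CD and 15.4 to 15.8 kb on LD.

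C/EBPα and Hnf4α, liver transcription factors that bind many hepatocyte enhancers, were compared by peak height, the number of tags in a peak scaled by the peak caller to a fixed library total. No test was run on the heights, since an exact permutation test of 2 livers against 2 cannot pass, and they are given as values. Libraries differed in general height: at loci called in all 4 samples genome-wide, median Hnf4α heights reached 35.8 and 33.5 in the LD livers, 21.5 in CD replicate 1 and 42.8 in CD replicate 2. For C/EBPα the medians were 24 and 25.5 in the LD livers, 37.5 in CD replicate 1 and 25 in CD replicate 2. A sample without a called peak was ranked below every called height.

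C/EBPα peaks near Mup3 were higher on LD, where Mup3 RNA was lower. At the locus chr4:61748969-61749291, centred at -784 bp from the Mup3 start (negative distances are upstream), the heights were 68.5 and 90.5 on LD, 11 in CD replicate 1 and not called in CD replicate 2. Centred 4372 bp downstream of the start, past the end of the gene, they were 43.5 and 64 on LD and 29 and 18 on CD. Both LD livers lay above both CD livers at each site. At -7255 bp they were 25 and 29 on LD, 22 in CD replicate 1 and not called in CD replicate 2.

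The same order was found at Mup20 and Mup21. C/EBPα heights at -819 bp from the Mup20 start were 7.5 and 18 on LD with no peak on CD, and at -3979 bp they were 10 and 18.5 with no peak on CD. In LD replicate 1 these heights stood at percentiles 27.5 and 44.2 of that library's peaks, in LD replicate 2 at 67 and 68.1. All lay under the height of 20 used as an alternative limit. At the Mup21 start (centre at -117 bp) the C/EBPα heights were 21 and 24.5 on LD, not called in CD replicate 1 and 9 in CD replicate 2. A locus at -7725 bp from Mup21 had 52.5 and 61.5 on LD and no peak on CD, just outside the cluster. The opposite order was found at chr4:61637283-61637597, with 45.5 and 52 on LD and 87 and 66.5 on CD.

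Within the cluster, 24 C/EBPα loci were called in at least 2 samples, and both LD heights exceeded both CD heights at 14 of them, both CD heights exceeded both LD heights at 2, and 8 overlapped. Loci called in the LD samples alone passed the limit of 2 samples through the diet in which they were high, and without LD replicate 1 the number in at least 2 samples was 14 instead of 24. Of 32983 such loci genome-wide, 23.3% had both LD heights above and 29.6% both CD heights above. After division by each sample's median height the cluster had 15 and 2, against 33.9% and 23.6% genome-wide. The LD livers had 25 and 27 C/EBPα peaks in the cluster and the CD livers 18 and 14, whereas the whole lists held 38281 and 39310 peaks on LD and 41713 and 46371 on CD.

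To show the sequence under these peaks, the C/EBPα peaks of LD replicate 1 upstream of Mup3 (chr4:61749055-61749291) and of Mup20 (chr4:61715868-61716104) are given from mm9, minus strand, 237 bases each. Capitals mark a match to TTGCNNAA, a C/EBP motif.
Mup3 peak: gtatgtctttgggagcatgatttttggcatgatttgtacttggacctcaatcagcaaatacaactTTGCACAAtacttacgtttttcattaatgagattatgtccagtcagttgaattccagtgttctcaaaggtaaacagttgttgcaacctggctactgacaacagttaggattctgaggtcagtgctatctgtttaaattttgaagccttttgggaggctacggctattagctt
Mup20 peak: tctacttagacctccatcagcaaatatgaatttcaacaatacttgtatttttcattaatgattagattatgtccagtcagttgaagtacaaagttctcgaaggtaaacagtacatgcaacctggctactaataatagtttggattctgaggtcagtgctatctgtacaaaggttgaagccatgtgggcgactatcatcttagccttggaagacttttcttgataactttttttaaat

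The pair shared 63.1% of their bases end to end, and 84.1% of 195 paired bases over the best matching part. TTGCACAA began 880 bases before the Mup3 start, and no match was in the Mup20 peak, on either strand. The motif is in 38.4% of 38249 C/EBPα peaks of that library cut to the same length and in 8.91% of the windows of 250 bases before start sites. No other motif searched overlapped the match.

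Hnf4α heights as deposited overlapped between the diets at the same places. They were 37.5 and 45.5 on LD and 22.2 and 65 on CD at -878 bp from Mup3, and 50.8 and 55 on LD and 36.2 and 65.2 on CD at 4316 bp downstream of its start. Upstream of Mup20 they were 28.8 and 32.2 on LD and 16.5 and 62 on CD at -834 bp, and 71.8 and 66.8 on LD and 40.5 and 72.2 on CD at -3945 bp. In each case the LD values lay between the CD values, CD replicate 1 being the lower. Divided by the sample medians, the values at -3945 bp were 2.01 and 1.99 on LD and 1.88 and 1.69 on CD, both LD values above both CD values, and those at the other 3 places still overlapped. Among sites just upstream of a start, the heights were separated at Mup7, with 12 and 13.5 on LD and 5.5 and 7 on CD at -760 bp.

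Of 31 Hnf4α loci in at least 2 samples, 25 overlapped between diets, both LD heights were above at 3 (22.2% of 45827 genome-wide) and both CD heights at 3 (6.49%). After division by the sample medians these numbers were 6 and 5, against 28.1% and 22.6% genome-wide. Of the sites with higher CD values, 2 lay at 27650 and 26125 bp downstream of the Mup20 start, within the broad H3K27ac locus, with 28.2 and 27.8 on LD against 29.2 and 63.5 on CD, and with 17.8 and 17.2 on LD against 21.2 and 48.2 on CD. Hnf4α loci called in all 4 samples numbered 18, against 5 for C/EBPα.

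**Figure D5:**
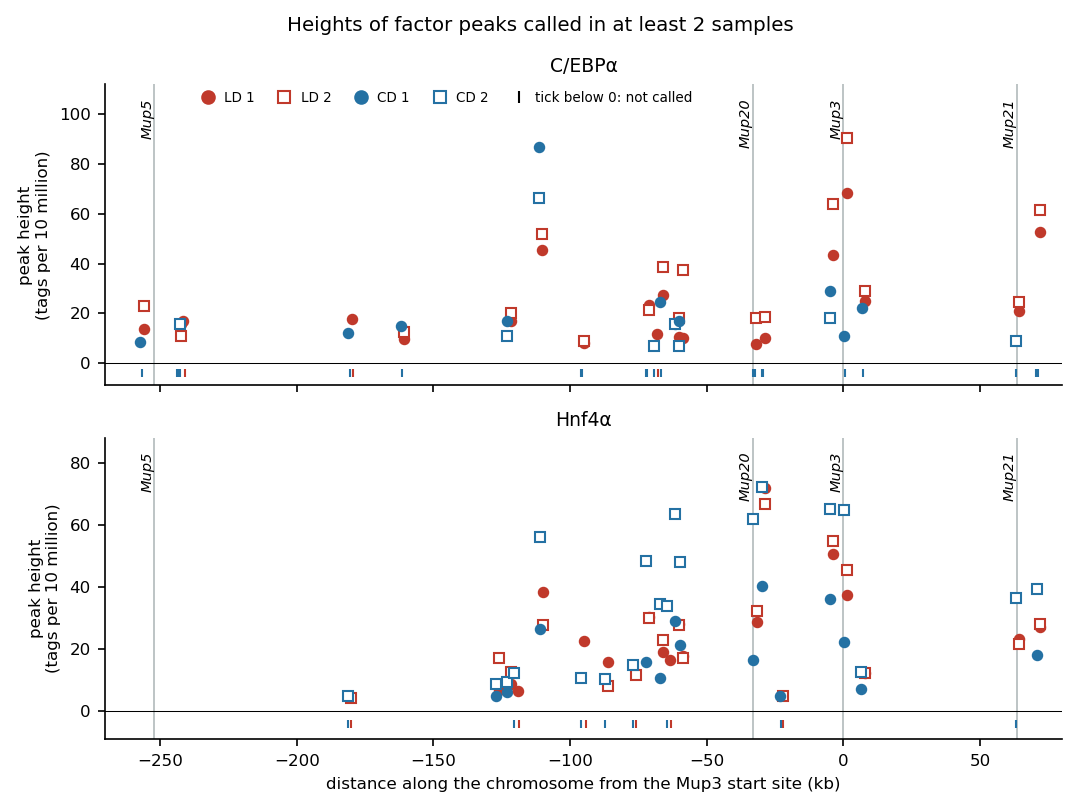
Peak heights (tags scaled to a fixed library total, linear axis) of C/EBPα and Hnf4α at loci called in at least 2 samples, from Mup5 to beyond Mup21, by distance in kb from the Mup3 start site, with LD points drawn 0.6 kb to the right and CD points 0.6 kb to the left of the locus centre. Ticks below 0 are samples without a called peak. At the Mup3 start the C/EBPα heights are 68.5 and 90.5 on LD and 11 on CD, whereas the Hnf4α heights overlap.

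Peaks lay at like distances from several Mup start sites, in windows that were chosen after the peaks had been seen. Between 1000 and 700 bp upstream, 5 of 21 start sites (Mup6, Mup7, Mup18, Mup20 and Mup3) had an Hnf4α peak and 3 a C/EBPα peak, against 2.48% and 2.77% of 24655 start sites genome-wide. Between 4000 and 4500 bp downstream, 7 of 21 had a peak of either factor, among them Mup4, Mup5 and Mup3, against 3.74% genome-wide. The copies share sequence and the windows were chosen on them, so these shares are a description. The windows with a peak had a median of 61.1% (upstream) and 77% (downstream) unique 35-base windows, and those without had 13.3% and 6.99%. Windows without a peak of either factor were not all short of unique sequence: upstream, 100% of the 35-base windows were unique at Mup4, 89.7% at Mup5 and 88% at Mup21, and downstream 58.1% were at Mup21. At the copies with little unique sequence, absence of binding and absence of alignable reads cannot be told apart. Peaks were also listed in windows with little of it, for Hnf4α in all 4 samples upstream of Mup18 (0% unique) and in 3 samples downstream of Mup9 (9.38%).

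No promoter interaction with a Mup name at the bait was in the PCHi-C lists, which hold interactions with a CHiCAGO score of at least 5 called on pooled replicates. With an end inside the cluster there were 4 of 151203 interactions on LD and 7 of 149798 on CD, and 0 had both ends inside. Their baits were Zfp37, Slc31a2 and a U6 gene, beyond Mup21, and the other ends lay from Mup5 to before Mup20. The LD interaction from the U6 bait ended on the fragment chr4:61494444-61501011 named for Mup5, with a score of 5.04. Scores ran from 5.04 to 7.14, and 2 interactions were in both lists, from Zfp37 to chr4:61501012-61502073 (5.29 on LD, 5.81 on CD) and to chr4:61570304-61570663 (5.7 and 7.14). Whether Mup promoters were among the captured fragments was not tested, and the pooled lists allow no replicate check. At 50 bases, the PCHi-C read length, 27.1% of the windows of the cluster were unique in the genome. The share was 17.4% from the first row to the end of Mup5, so absence of contacts and absence of alignable reads cannot be told apart there.

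Topologically associated domains, called on summed Hi-C replicates, placed the members in different domains. On LD, Mup4, the Mup2 rows, Mup1 and Mup5 lay in a domain from 59940000 to 61520000 and Mup20, Mup3 and Mup21 in one from 61605000 to 61920000 on chromosome 4. Between them the LD list had a further domain from 61520000 to 61605000 that held no member and was not in the CD list. On CD the domains ran from 59940000 to 61580000 and from 61580000 to 61935000 with the same members as on LD. The grouping of the members was thus the same in both lists, and each list rests on summed replicates. Hi-C reads had the same length as those of PCHi-C, so the small share of unique sequence limits these domains as well.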

How the data were processed

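RNA was measured in livers of 5 LD and 5 CD mice, and chromatin as given above. The submitters' processing notes and the methods name STAR 2.5 on mm9 and featureCounts 1.5.0-p1 by strand on RefSeq genes, and Bowtie 0.12.8, Picard 1.110, SICER and HOMER for ChIP-seq. The authors deposited raw counts of read pairs per gene row, and TPM of the same rows, in which 1 CD column has a replicate number outside the labels and was used for its diet only. The authors' columns of log2 fold change, FDR and DEG status, from their DESeq2 comparison, were not used. Deposited H3K27ac lists hold peak positions per sample. Deposited Hnf4α and C/EBPα lists give per peak a height (signal, tags scaled to a fixed total) and a ratio (fold over input, not printed here). The authors' CHiCAGO score was computed on pooled replicates, and the score column of the TAD lists was not used.

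Counts were tested with edgeR 4.0.16 in R 4.3.3 (TMM, filterByExpr, robust quasi-likelihood fit, Benjamini-Hochberg adjustment over 13494 rows). On simulated counts for LD against CD over 13494 rows, the fit found 177 of the 200 altered genes and 9 unaltered ones. Overlapping peaks were merged. Uniqueness was computed by counting every window of 35, 50 or 76 bases on both strands of NCBIM37 and in GENCODE vM1 protein-coding transcripts, and coding sequences were aligned with Biopython 1.88. Python 3.11.15, numpy 2.4.6, scipy 1.17.1 and numba 0.67.0 were used. Alternatives were DESeq2 1.42.0, limma 3.58.1 on log2 TPM, other scalings and filters, a replicate block and the omission of single libraries. No counting intervals are given for peaks, since the lists hold called peaks alone.

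Named were all member rows, other Mup rows with over 1000 counts or called, at most 4 called genes per list with values, and the 5 genes most like Mup3. The members and the gene lists were chosen with earlier results of these data known. P-values set the difference between the diets against the spread between the livers sequenced. The result of 1 marker gene is not reported here.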

Additional observations from a re-analysis of the deposited data

Results flagged for a closer look

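In groups of 5 livers, a mouse was marked when its gap to the nearest of the others, divided by the range of the group, exceeded Dixon's 95% critical value of 0.71. Of 124 groups of values tested this way, 6 were marked, close to the 5% that chance gives. None of the 6 was a Mup row. In CD replicate 3, Ghr was at 905.9 CPM against 761.6 to 791.2 in the other CD mice, Cyp2b9 at 1.871 CPM against 0.4128 to 0.7647, and Sec23b at 78.54 CPM against 57.66 to 63.47. In LD replicate 2, the mouse with the highest Mup20 counts, the macrophage markers Cd68 and Itgam were at 23.51 CPM against 13.67 to 16.16 and at 8.356 CPM against 2.625 to 3.414. In CD replicate 2, Spp1 was at 25.16 CPM against 13.19 to 15.47. Leaving out each mouse in turn, the marked ones included, kept the Mup3 log2 fold change between -1.18 and -0.92, with adjusted p 7.14e-04 to 0.0087 (edgeR).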

How the results depend on the processing

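Over 20 alternatives, Mup3 ranged from -1.18 to -0.75 (adjusted p 5.28e-07 to 0.0087), Mup21 from -1.62 to -1.003 (1.96e-04 to 0.0311), and Mup20 (0.125 to 0.672) and Mup1 (0.232 to 0.974) were not called under any. The called Mup2 row was called in 19, from -2.73 to -0.989 (the latter with limma on log2(TPM + 1), whose pseudocount shrinks low values), and at 10 counts in every sample it was not tested. No called member changed direction. Omission of LD replicates 4 and 5 and division by the median height were chosen after the data had been seen. The replicate numbers did not pair the mice (deviations of like-numbered mice correlated at -0.084 to 0.196). With a replicate block, Mup3 was at -1.11 (adjusted p 0.00161), Mup21 at -1.55 (0.0202), the Mup2 row at -2.35 (0.00588) and Mup20 at -0.48 (0.311), and 1355 rows were called lower and 1818 higher. On log2(TPM + 1) and log2(TPM + 0.1), limma called 740 and 778 rows lower and 2227 and 2330 higher, so that 24.9% and 25% of calls were lower against 44.6% (1498 of 3357) with edgeR. Other Mup rows called lower numbered 8 with DESeq2 and 6 and 5 with limma, against 3.

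H3K27ac coverage differed by -0.716 to -0.352 percentage points with 1 liver left out (exact permutation p 0.1 to 0.3). Loci called in all 6 livers numbered 18, but 11 with at least 50% of the locus covered. At a minimum height of 20, 12 Hnf4α loci (of 31) and 6 C/EBPα loci (of 24) remained in at least 2 samples. Leaving out single samples gave 22 to 29 and 14 to 22. Hnf4α loci with both LD heights above rose from 3 to 6 after division by the median height. Of 11 interactions, 0 had a score of at least 10 and 0 had both ends in the cluster. The cause was not tested.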
